A study of Mus musculus with 12 samples.

Results

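The 78 genes described here are named for the numbered proteins of the mitochondrial ribosome: every gene whose name begins with Mrpl or Mrps followed by a digit. On the array 130 of 41174 probes carried such a name, 5 of them only after an older name had been updated (Mrp63 to Mrpl57, D10Ertd322e to Mrpl42 and Ict1 to Mrpl58). Of these probes 126 passed the filter on dim signal and 4 were removed, and all 78 genes kept at least 1 probe, among 19304 genes tested in all. The brightest probe stood for a gene, and each of these 78 probes was well above background on all 12 arrays. By name, with Mrps18a and Mrps30 placed in the large subunit, 51 genes were counted in the large and 27 in the small subunit, and 48 of the 78 proteins have a counterpart in the bacterial ribosome. Mrps36, which despite its name has been assigned to the mitochondrial 2-oxoglutarate dehydrogenase complex, was counted by its name, among the small subunit and the mitochondrion-specific genes.

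RNA came from whole uteri of ovariectomized female mice of mixed C57bl6/Jx129 strain, at least 10 weeks old, which had 10 to 14 days without ovaries before a single injection of 100 ul; uteri were taken 2 h later. The 4 groups of 3 mice were EAAE mice given estradiol (EAAE E2), EAAE mice given saline (EAAE saline), wild-type mice given estradiol (WT E2) and wild-type mice given saline (WT saline). EAAE is the label's genotype at Esr1, and the title calls this receptor deficient in binding DNA. The estradiol dose and the zygosity of EAAE are not given in the sources used here.

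Mitochondria carry their own small genome, whose protein products are all membrane subunits of the respiratory chain and the ATP synthase. They are made on a separate ribosome of bacterial descent, with a small subunit that reads the messenger RNA and a large subunit that joins the amino acids. All of its proteins are encoded in the nucleus, made in the cytosol and imported, so that their transcripts are part of the nuclear response to a hormone. In the uterus estradiol works chiefly by way of estrogen receptor alpha, a DNA-binding protein that can also be tethered to genes by partner proteins, and it starts a programme of growth that includes the making of new ribosomes. The comparisons ask which of these transcripts changed 2 h after estradiol, which of the changes differed in EAAE uteri, and how the genotypes differed with and without hormone.

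Levels are log2 intensities relative to the 75th percentile of each array, so a value of 0 lies at that percentile. A member's levels are compared between arrays, never with those of another member. Before scaling, the 75th percentile was 1324.4 to 1851.8 intensity units, and 63.98 to 74.03% of the probes on an array were well above background. All 6 uterine markers were tested, while 3 of 5 ovarian markers (Cyp19a1, Cyp11a1 and Fshr) were well above background on no array. Esr1 was at 3.04 to 3.25 in EAAE E2, 3.22 to 3.42 in EAAE saline, 2.65 to 2.76 in WT E2 and 2.84 to 3.02 in WT saline uteri, well above background on every array, so its level does not check the genotype label. The arrays lay on 3 slides, each of which held arrays of at least 3 groups. Position on the slide followed the groups: 1 and 2 for WT saline, 1 to 3 for WT E2, 2 and 3 for EAAE saline. Position 4 of each slide held an EAAE E2 array. A fit with position therefore cannot cleanly separate position from group. Within a group the members' spread was small: the median SD over the 78 genes was 0.09 in EAAE E2, 0.10 in EAAE saline, 0.06 in WT E2 and 0.09 in WT saline uteri (n = 3 each).

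In wild-type uteri estradiol moved the members both ways within 2 h. Of the 78 genes 22 rose and 15 fell past an adjusted p of 0.05, against 19.5% and 29.9% of all genes tested (49.4% either way). In 30 members every WT E2 array was above every WT saline array and in 22 every one was below, which was so for 24.7% and 39.8% of all genes. The rises ran from 0.24 (Mrpl47) to 0.85 (Mrps7) and the falls from -0.19 (Mrpl24) to -0.75 (Mrpl34), so that no member changed by as much as 1 log2 unit, a size that 15.2% of all genes exceeded. The members' median difference was 0.007, beside -0.148 over all genes. In whole-uterus RNA, fewer cells of a type and less RNA per cell cannot be told apart.

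The 3 largest rises were in small subunit proteins with bacterial counterparts. Mrps7, whose bacterial counterpart helps to organise the head of the small subunit, measured 2.30, 2.50 and 2.27 in WT E2 uteri, against 1.56, 1.42 and 1.53 in WT saline uteri. Every WT E2 array was above every WT saline array, and the difference was 0.85 ± 0.10 (SE), or 1.80-fold (adjusted p = 4.98e-05). A second probe for Mrps7 gave a rise of 0.85 as well. Mrps2, a small subunit protein with a bacterial counterpart, measured 0.64, 0.76 and 0.62 in WT E2 uteri, against -0.19, -0.19 and -0.02 in WT saline uteri. Here too the groups stood apart, and the rise was 0.81 ± 0.10 (1.75-fold, adjusted p = 7.86e-05). Its other 2 probes gave 0.79 and 0.50, neither of which passed the test.

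Mrps18b, 1 of 3 mammalian relatives of the bacterial protein of that number, rose almost as far. It measured -1.64, -1.47 and -1.53 in WT E2 uteri, against -2.30, -2.40 and -2.42 in WT saline uteri. The gap between the groups was larger than the range within either, and the rise was 0.82 ± 0.07 (1.77-fold, adjusted p = 1.01e-05). This value comes from a probe on the minus strand (mm7 chr17:34018542-34018690). Another probe listed under the same gene lies on the plus strand (mm7 chr17:34014613-34014672) and differed by -0.06 between WT E2 and WT saline, which did not pass the test. The other 2 relatives did not move as far: Mrps18a, which sits in the large subunit, rose by 0.33 ± 0.09, with 2.21, 2.23 and 2.24 in WT E2 uteri, against 1.91, 1.82 and 1.96 in WT saline uteri. Mrps18c measured 1.43, 1.57 and 1.70 in WT E2 uteri, against 1.80, 1.56 and 1.79 in WT saline uteri, and its difference of -0.15 ± 0.12 came with overlapping groups (adjusted p = 0.321).

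Among the large subunit proteins Mrpl16 rose most. Its bacterial counterpart lies close to the centre where peptide bonds are made. It measured 2.23, 2.32 and 2.31 in WT E2 uteri, against 1.61, 1.61 and 1.59 in WT saline uteri, a rise of 0.69 ± 0.07 (1.61-fold, adjusted p = 2.91e-05). Mrpl12, the counterpart of the bacterial stalk protein that recruits translation factors to the ribosome, measured 3.5, 3.55 and 3.57 in WT E2 uteri, against 3.06, 2.85 and 2.92 in WT saline uteri. It rose by 0.60 ± 0.08 (1.52-fold, adjusted p = 0.00022), with no overlap between the groups. Mrps12, whose bacterial counterpart takes part in decoding, did not pass the test, with 2.65, 2.59 and 2.66 in WT E2 uteri, against 2.64, 2.55 and 2.72 in WT saline uteri.

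Proteins found only in the mitochondrial ribosome rose too. Mrps23, of the small subunit, rose by 0.65 ± 0.10, with 0.81, 1.05 and 0.84 in WT E2 uteri, against 0.28, 0.28 and 0.19 in WT saline uteri. Mrpl43 measured 4.09, 4.30 and 4.16 in WT E2 uteri, against 3.61, 3.56 and 3.59 in WT saline uteri, and Mrpl50 measured 2.55, 2.59 and 2.57 in WT E2 uteri, against 2.05, 2.00 and 1.98 in WT saline uteri. These rises of 0.60 ± 0.09 and 0.56 ± 0.09 again left the groups apart. By class, 13 of 48 genes with a bacterial counterpart rose and 9 fell, and 9 of 30 mitochondrion-specific genes rose and 6 fell. By subunit, 15 of 51 large subunit genes rose and 10 fell, and 7 of 27 small subunit genes rose and 5 fell. Mrps36 is 1 of the falls counted in the mitochondrion-specific class and in the small subunit.

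**Figure D1:**
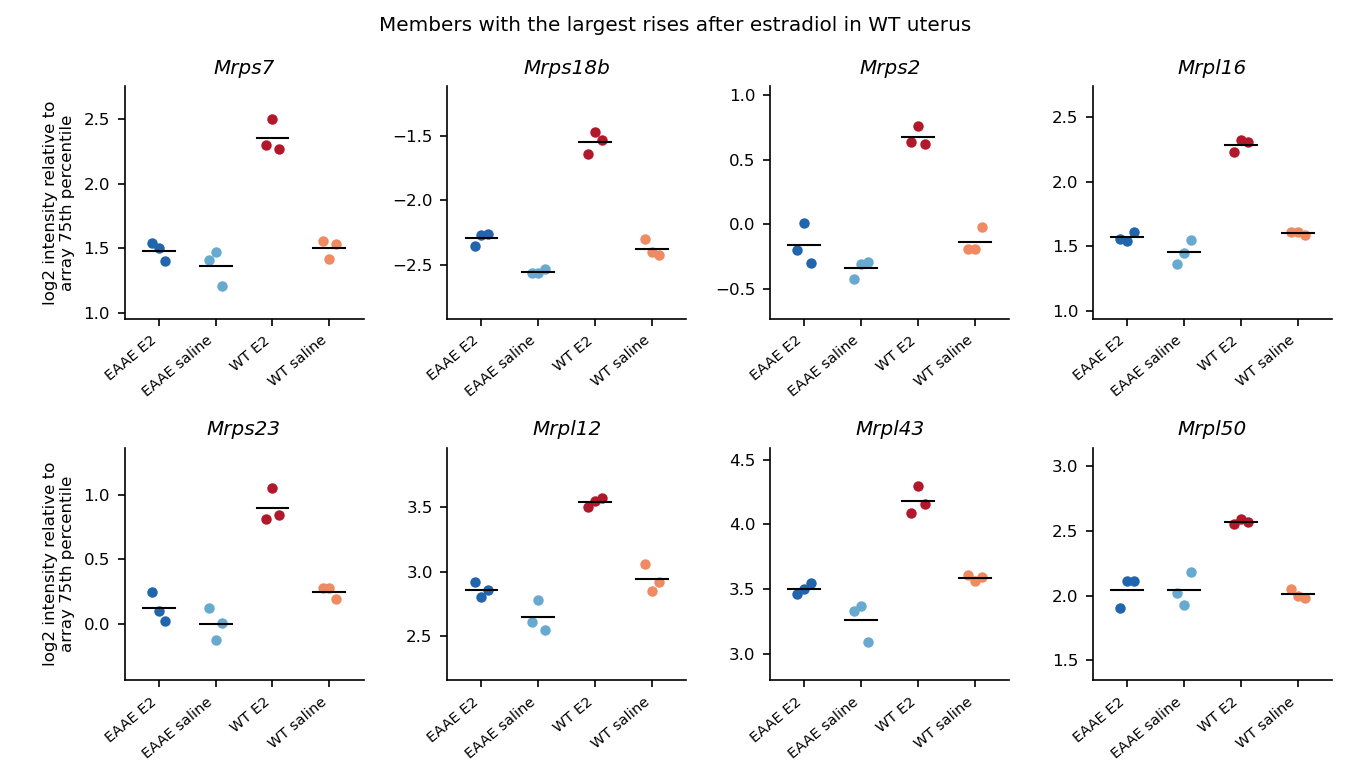
The 8 members with the largest rises after estradiol in WT uteri, by array. Each panel is 1 gene, each point 1 mouse and each bar a group mean (n = 3), in log2 intensity relative to the array's 75th percentile; all vertical axes span the same range. In each panel the 3 WT E2 points lie above all 9 others.

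The falls were led by Mrpl34, a small protein of the large subunit with a bacterial counterpart. It measured 1.06, 0.91 and 0.97 in WT E2 uteri, against 1.70, 1.68 and 1.81 in WT saline uteri. It fell by 0.75 ± 0.08 on the log2 scale, to 0.593 of the saline level (adjusted p = 4.56e-05), and the groups did not overlap. Mrpl42, a mitochondrion-specific protein, measured 1.69, 1.64 and 1.76 in WT E2 uteri, against 2.25, 2.11 and 2.32 in WT saline uteri, and fell by 0.53 ± 0.10. Mrpl30 measured 2.18, 2.14 and 2.32 in WT E2 uteri, against 2.75, 2.61 and 2.75 in WT saline uteri, and fell by 0.49 ± 0.09. In these 3 genes each WT E2 array was below each WT saline array.

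Mrpl44, which is related to bacterial ribonuclease III, fell by 0.41 ± 0.13, with 1.09, 1.14 and 1.39 in WT E2 uteri, against 1.71, 1.70 and 1.44 in WT saline uteri. Mrpl13 fell by 0.40 ± 0.08, with 2.27, 2.22 and 2.44 in WT E2 uteri, against 2.76, 2.68 and 2.69 in WT saline uteri. Mrps33 fell by 0.34 ± 0.09, with 3.89, 3.79 and 3.94 in WT E2 uteri, against 4.34, 4.08 and 4.22 in WT saline uteri. Mrps36 fell by 0.31 ± 0.09, with 0.58, 0.54 and 0.76 in WT E2 uteri, against 0.95, 0.97 and 0.88 in WT saline uteri. Mrpl14 fell by 0.29 ± 0.11, with 4.20, 4.11 and 4.20 in WT E2 uteri, against 4.46, 4.31 and 4.62 in WT saline uteri. In these 5 genes too the WT E2 arrays lay below all WT saline arrays. The other falls, from -0.19 to -0.28, were in Mrps35, Mrps21, Mrps9, Mrpl45, Mrpl2, Mrpl11 and Mrpl24.

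**Figure D2:**
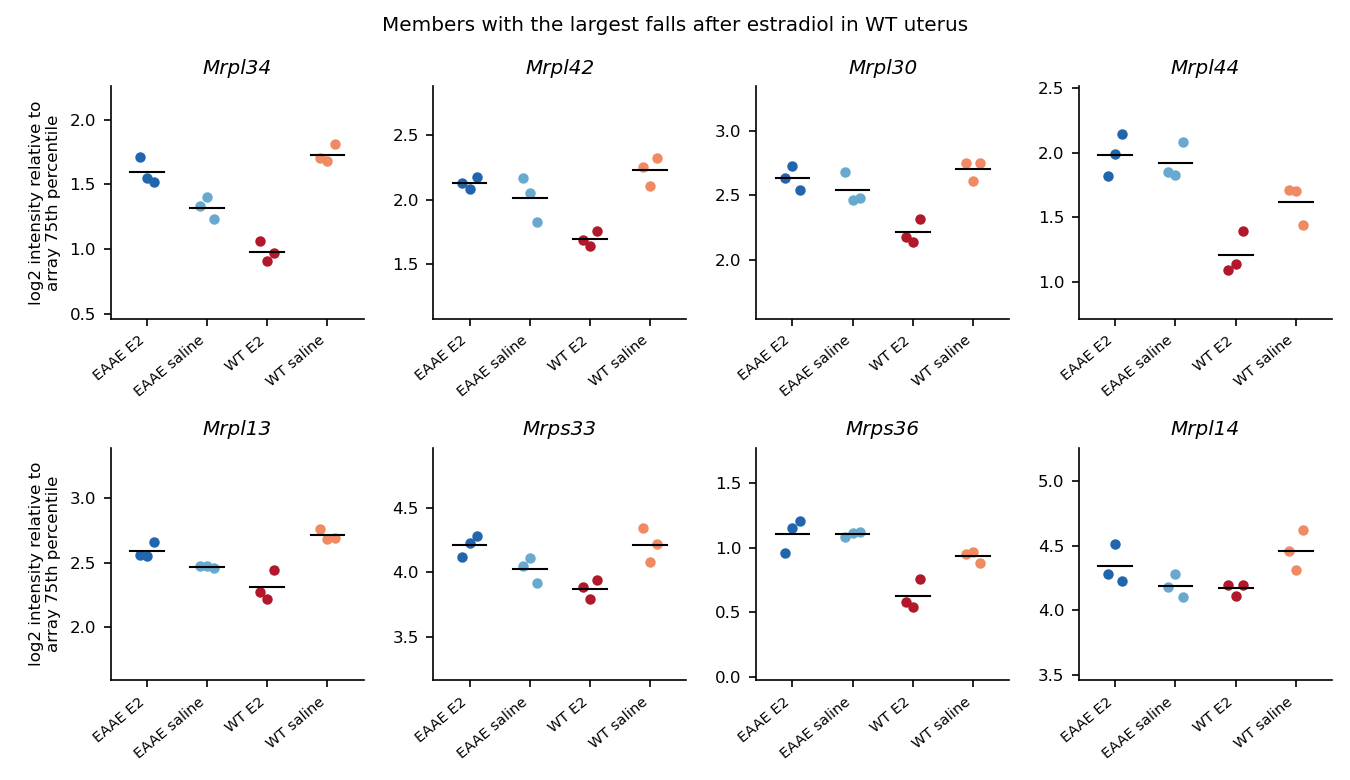
The 8 members with the largest falls after estradiol in WT uteri, by array, drawn as in the plot of the largest rises. The 3 WT E2 points of each panel lie below the 3 WT saline points, and in Mrpl14 and Mrps33 their range overlaps that of the EAAE saline points.

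How the falls are counted depends on how the arrays are scaled. With each array's median in place of its 75th percentile, the median difference of all genes was -0.011 in place of -0.148, and the members then held 30 rises and 3 falls; 53.5% of all calls were then rises, against 39.4% with the 75th percentile. The members' median lay 0.155 above that of all genes under both of these scalings. This equality holds by construction, since each scaling shifts all genes of an array by the same amount. After quantile normalization, which can change the gap, the members' median lay 0.051 above that of all genes, and 19 members rose and 23 fell. Across every alternative run, 13 members kept their call: Mrps7, Mrps18b, Mrps2, Mrpl16, Mrps23, Mrpl12, Mrpl43, Mrpl50, Mrpl20, Mrps22 and Mrpl17 as rises, and Mrpl34 and Mrpl30 as falls. Without WT E2 mouse 2, 5 falls were left, and without WT E2 mouse 1, WT saline mouse 1 or WT saline mouse 3, 7 were left. With the slide as a block 9 falls were left, and with slide and position 11 rises and 3 falls. Of all genes 28.8% fell with the slide as a block, and 13.2% rose and 19.3% fell with slide and position. On each of the 2 slides that held both groups, all 22 rises were above 0 and all 15 falls below it. The 2 groups did not overlap in any of these members, so these signs were fixed beforehand and are no check on the slides.

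Cell type markers moved in the same comparison. All 8 adipocyte markers were lower, and their summed level was 2.62 to 26.3 in WT E2 uteri, against 26.4 to 202 in WT saline uteri (intensity as a multiple of the 75th percentile). Of 7 stromal markers 6 were lower (45.7 to 52.4 in WT E2, against 89.4 to 111 in WT saline), and of 6 endothelial markers 4 were lower (12.5 to 12.9 in WT E2, against 21.2 to 26.3 in WT saline). All the markers of these 3 lists were well above background on all arrays except the adipocyte gene Lep, which was so on 9. The part of these shifts in the members' changes was not tested.

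For 34 members more than 1 probe was tested. In the wild-type response 17 of these genes were called on their brightest probe, 13 of them with a second probe called in the same direction, and no gene had probes called in opposite directions. Mrpl3 rose on 3 of its 4 probes (0.29, 0.35 and 0.36), while the fourth, on another transcript, differed by -0.21. In 3 genes another probe differed by far more than the one that stands for the gene. A second Mrpl17 probe rose by 1.51 where the first rose by 0.47, and an Mrpl38 probe rose by 1.22 where the first rose by 0.27. Mrpl52 differed by 0.11 on its first probe and rose by 0.79 on another transcript's probe. Mrpl33 differed by -0.007 on its first probe. A probe of another Mrpl33 transcript was well above background on 3 of 3 WT saline arrays but on 1 of 3 WT E2 arrays, so the size of its difference was not measured.

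In EAAE uteri no member passed the test after estradiol. This was so in limma at an adjusted p of 0.05, where 0.689% of all genes rose and 0.715% fell (1.4% either way), and 11 members had an unadjusted p below 0.05. The smallest adjusted p was 0.121, for Mrps18b. Even so the differences leaned one way: 73 of 78 members were higher in EAAE E2 than in EAAE saline uteri, with a median of 0.12 beside 0.03 over all genes, of which 54.7% were higher. The range was -0.12 (Mrps6) to 0.30 (Mrps26), and in 20 members every EAAE E2 array was above every EAAE saline array, which was so for 9.96% of all genes. No member had every EAAE E2 array below, against 8.52% of all genes. The lean was smaller than most of the wild-type changes, and no p is given for it. It was shared by other lists described below. Medians were 0.104 for cytosolic ribosomal proteins, 0.119 for respiratory chain subunits and 0.2 for mitochondrial transcription and RNA stability, but -0.046 for regulators of mitochondrial biogenesis. After quantile normalization the members' median was 0.085, beside 0.016 over all genes.

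The largest of these differences were small beside the largest wild-type ones. Mrps26, a mitochondrion-specific small subunit protein, measured 3.11, 3.12 and 2.93 in EAAE E2 uteri, against 2.61, 2.95 and 2.68 in EAAE saline uteri, and the difference of 0.30 ± 0.10 came with groups that overlapped. Mrpl34 measured 1.71, 1.55 and 1.52 in EAAE E2 uteri, against 1.33, 1.4 and 1.23 in EAAE saline uteri, a difference of 0.28 ± 0.08 with no overlap (adjusted p = 0.146). Mrpl46, a mitochondrion-specific protein, measured 0.52, 0.51 and 0.45 in EAAE E2 uteri, against 0.26, 0.28 and 0.14 in EAAE saline uteri, a difference of 0.27 ± 0.08 with no overlap (adjusted p = 0.159). Next in size came Mrps18b. It measured -2.35, -2.27 and -2.26 in EAAE E2 uteri, against -2.56, -2.56 and -2.53 in EAAE saline uteri, a difference of 0.26 ± 0.07. Mrps34 (0.25), Mrpl49 (0.24), Mrpl43 (0.24) and Mrpl57 (0.21) followed. Mrpl12, the stalk protein, measured 2.92, 2.80 and 2.86 in EAAE E2 uteri, against 2.61, 2.78 and 2.55 in EAAE saline uteri. Its groups did not overlap, and the difference was 0.21 ± 0.08 (adjusted p = 0.252).

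**Figure D3:**
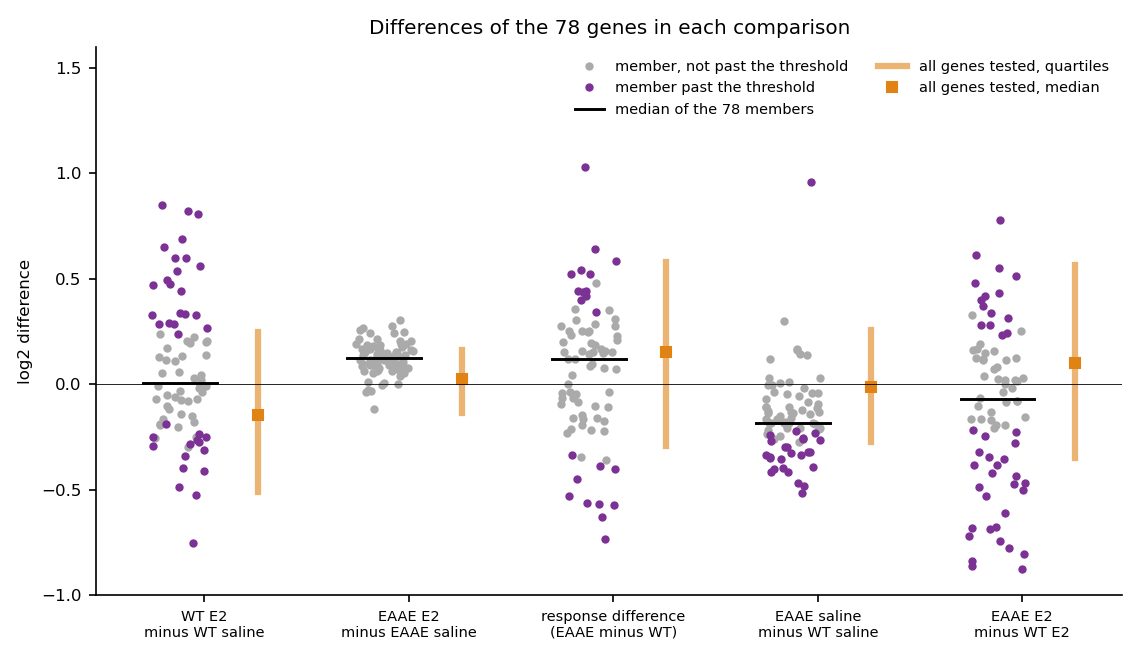
Log2 differences of the 78 members in the 5 comparisons, 1 point per gene (horizontal scatter is for legibility), with the members' median as a black bar and the median and quartiles of all 19304 genes in orange. The members spread both ways in the WT response, lie in a narrow band just above 0 in the EAAE response, and lie mostly below 0 in EAAE saline against WT saline.

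The 2 responses differed in 22 members when the difference itself was tested (the EAAE response minus the WT response). In 10 the EAAE response was lower, against 14.8% of all genes, and in 12 it was higher, against 22.7% (37.5% either way). The WT arrays enter this difference with the opposite sign, so a member that rose in WT uteri tends towards the lower side and one that fell towards the higher side by construction. The 10 lower ones were all among the WT rises, and 10 of the 12 higher ones were among the WT falls. The median difference was 0.12 beside 0.15 over all genes. Stromal markers (5 of 7 higher) and endothelial markers (3 of 6 higher) moved in this difference too, and of the 6 uterine markers 1 was higher and 2 lower; each other marker list held at most 1 call. The summed stromal level was 93.4 to 115 in EAAE E2, 83.1 to 101 in EAAE saline, 45.7 to 52.4 in WT E2 and 89.4 to 111 in WT saline uteri. The part of these marker shifts was not tested.

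The EAAE response had much the same median whatever the member did in wild-type uteri: 0.14 for the 22 that rose there, 0.11 for the 15 that fell and 0.11 for the 41 not called. The WT medians of these classes, which were chosen on those values, were 0.47, -0.29 and -0.02. For 10 of the 22 the response difference passed the test. Mrps7 differed most: it measured 1.54, 1.5 and 1.4 in EAAE E2 uteri, against 1.41, 1.47 and 1.21 in EAAE saline uteri, a difference of 0.12, so that the response difference was -0.73 ± 0.14 (adjusted p = 0.00219). Mrps2 measured -0.20, 0.01 and -0.30 in EAAE E2 uteri, against -0.42, -0.31 and -0.29 in EAAE saline uteri, and its response difference was -0.63 ± 0.14. Mrpl16 measured 1.56, 1.54 and 1.61 in EAAE E2 uteri, against 1.36, 1.45 and 1.55 in EAAE saline uteri, with a response difference of -0.57 ± 0.10. In each of these genes the EAAE groups overlapped, where the WT groups lay far apart.

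Mrpl50 gave the plainest contrast, with 1.90, 2.11 and 2.11 in EAAE E2 uteri, against 2.02, 1.93 and 2.18 in EAAE saline uteri. These groups overlap throughout, and the response difference was -0.56 ± 0.12 (adjusted p = 0.00555). The others with a lower EAAE response were Mrps18b (-0.57), Mrps23 (-0.53), Mrps6 (-0.45), Mrps22 (-0.40), Mrpl12 (-0.39) and Mrpl17 (-0.33). For Mrpl43, Mrpl20, Mrps34 and Mrpl46, which also rose in wild-type uteri, the response difference of the brightest probe did not pass the test. This does not show that they respond alike in both genotypes. The brightest Mrpl43 probe missed the threshold narrowly in limma (adjusted p = 0.0502), and another Mrpl43 probe passed the test.

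On the other side stood Mrpl34, whose response difference of 1.03 ± 0.12 (adjusted p = 0.000133) was the largest of any member in size. It fell in WT uteri and was 0.28 higher in EAAE E2 than in EAAE saline uteri. Mrpl42 measured 2.13, 2.08 and 2.18 in EAAE E2 uteri, against 2.17, 2.05 and 1.83 in EAAE saline uteri, and its response difference was 0.64 ± 0.14. Mrpl30 measured 2.63, 2.73 and 2.54 in EAAE E2 uteri, against 2.68, 2.46 and 2.48 in EAAE saline uteri, and its response difference was 0.58 ± 0.13. Both had overlapping EAAE groups. Mrpl13 (0.52), Mrps33 (0.52), Mrpl14 (0.44), Mrpl2 (0.44), Mrps35 (0.42), Mrpl45 (0.40) and Mrpl11 (0.34) had also fallen in WT uteri. Mrpl49 (0.54) and Mrpl48 (0.44) passed this test although the WT differences of their brightest probes, -0.30 and -0.26, did not. Another Mrpl49 probe was called in the WT response.

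With array medians as the scale, 4 members had a higher and 10 a lower EAAE response, and with quantile normalization 17 and 8. With the slide as a block 6 had a higher one, against 19.5% of all genes. With slide and position 5 had a higher and 6 a lower one, against 18.3% and 12.2% of all genes. Averaged over all of a gene's probes, the response differences of Mrps18b (-0.212) and Mrps2 (-0.555) did not pass the test. Of 34 genes with several tested probes, 5 had a probe of the opposite sign in this difference. Of 11 called on their brightest probe, 6 had a second probe called the same way. Mrps18b was called although another probe had the opposite sign, and 5 genes were called only on another probe. Under every alternative run, 7 members kept their call: Mrps7, Mrpl16 and Mrpl50 lower and Mrpl34, Mrpl42, Mrpl30 and Mrpl13 higher. Leaving out WT saline mouse 1 or 3, WT E2 mouse 1 or 2, EAAE saline mouse 1 or EAAE E2 mouse 2 brought the 12 higher responses to 6 or 7. Across the 78 members the 2 responses, which share no array, had a Pearson correlation of 0.15, and -0.04 across all genes; genes are not independent replicates, and all values share the array scaling.

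**Figure D4:**
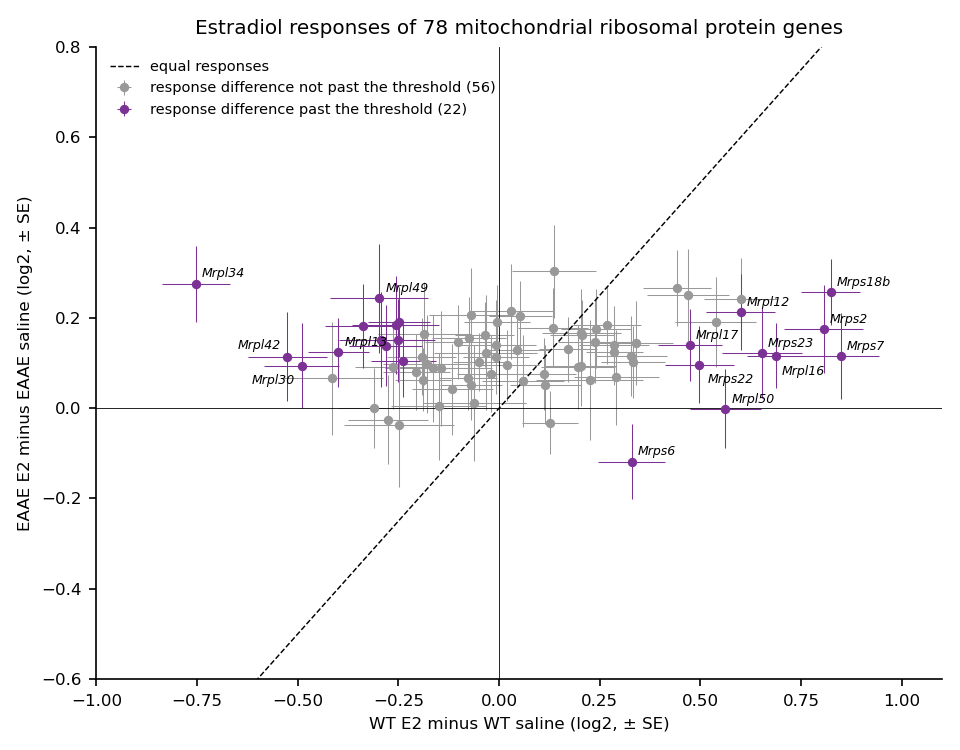
Estradiol response in EAAE (vertical axis) against that in WT (horizontal axis) for the 78 members, in log2 units with standard errors; purple points passed the test of the difference, and those farthest from 0 in WT are named with Mrps6 and Mrpl49. The WT values run from -0.75 to 0.85 and the EAAE values from -0.12 to 0.30.

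Without hormone the members called between genotypes were, with 1 exception, lower in EAAE uteri. In saline 25 of 78 were lower and 1 was higher, against 15.8% and 13.7% of all genes (29.5% either way). In 35 members every EAAE saline array was below every WT saline array and in 4 every one was above, which was so for 24.7% and 22.5% of all genes. The median was -0.18 beside -0.02 over all genes, and 11 members were above 0. The lean was shared: respiratory chain subunits had a median of -0.195 (15 of 81 lower, 2 higher). Cytosolic ribosomal proteins had a median of -0.144 (9 of 78 lower, 0 higher). Medians of the other lists described below ran from -0.141 (mitochondrial transcription and RNA stability) to 0.105 (regulators of mitochondrial biogenesis). By subunit, 19 of 51 large subunit genes and 6 of 27 small subunit genes were lower. By class, 15 of 48 genes with a bacterial counterpart and 10 of 30 mitochondrion-specific genes were lower. Probes agreed less well here: of 34 genes with several tested probes, 13 had a probe of the opposite sign. Of 8 called on their brightest probe, 4 had a second probe called the same way. Mrpl57 and Mrps5 were called although another probe had the opposite sign.

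Mrpl20, whose bacterial counterpart is needed early in the assembly of the large subunit, was lowest. It measured 3.04, 3.12 and 2.85 in EAAE saline uteri, against 3.61, 3.36 and 3.59 in WT saline uteri, a difference of -0.52 ± 0.10 (0.699-fold, adjusted p = 0.00356). Mrps11 measured -0.74, -0.76 and -1.01 in EAAE saline uteri, against -0.30, -0.48 and -0.28 in WT saline uteri, a difference of -0.48 ± 0.10. Mrps28 measured 2.56, 2.75 and 2.53 in EAAE saline uteri, against 3.1, 2.91 and 3.24 in WT saline uteri, a difference of -0.47 ± 0.10. None of the 3 had overlapping groups. Next came Mrpl54 (-0.42), Mrpl34 (-0.42), Mrps22 (-0.40), Mrpl37 (-0.40) and Mrpl4 (-0.39), and the remaining 17 lay between -0.22 and -0.36. The last group includes Mrpl58, a peptidyl-tRNA hydrolase built into the large subunit that frees stalled chains (-0.34), and Mrpl12 (-0.30).

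These counts too moved with single arrays and with the layout. With the slide as a block 4 members were lower and 1 higher, against 10.2% and 8.52% of all genes. With slide and position limma called 0 members (10 had an unadjusted p below 0.05), and 1.03% of all genes were lower and 1.13% higher. The members' median was then -0.285, beside -0.068 over all genes. With array medians as the scale 12 were lower, against 13.5% of all genes. With only the 6 arrays of these groups in the fit 11 were lower, against 14.8% of all genes. Without WT saline mouse 1, WT saline mouse 3 or EAAE saline mouse 3, 12 were lower, and without EAAE saline mouse 1, 16 were. Only 1 slide held both groups, with 1 array of each, and there all 25 were below 0, with a median of -0.178 beside 0.021 over all genes. Apart from Mrpl57 and Mrpl58, the 2 groups did not overlap in any of the 25, so those signs were fixed beforehand. Mrpl20, Mrpl34 and Mrps6 kept their call under every alternative but that with position. Macrophage markers moved with the genotype (3 of 6 lower, summed level 32.8 to 48.6 in EAAE saline, against 106 to 168 in WT saline), as did epithelial ones (4 of 7 higher and 2 lower, 182 to 225 in EAAE saline, against 121 to 138 in WT saline). Of 5 skeletal muscle markers 3 were higher and 1 lower, and of 7 stromal markers 2 were higher. Their part was not tested.

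Mrps6 alone was higher in EAAE saline uteri. It encodes a small subunit protein with a bacterial counterpart. It measured 4.41, 4.58 and 4.36 in EAAE saline uteri, against 3.56, 3.46 and 3.44 in WT saline uteri, a difference of 0.96 ± 0.08 (1.95-fold, adjusted p = 2.89e-05). Every EAAE saline array was above every WT saline array. A second probe on the same transcript, mm7 chr16:92162250-92162309 beside chr16:92162324-92162383 for the first, gave 1.02. After estradiol Mrps6 measured 4.25, 4.38 and 4.35 in EAAE uteri, against 3.79, 3.90 and 3.76 in WT uteri, a difference of 0.51 ± 0.08. Mrps6 rose by 0.33 ± 0.08 in WT uteri, and its difference between EAAE E2 and EAAE saline uteri, -0.12, did not pass the test.

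In the RefSeq annotation of GRCm38.p6 the Mrps6 gene overlaps Slc5a3, which encodes a sodium-coupled myo-inositol transporter. Slc5a3 was chosen after its values were seen. It measured -0.33, -0.54 and -0.41 in EAAE saline uteri, against -1.46, -1.41 and -1.66 in WT saline uteri, 1.08 ± 0.11 higher in EAAE (adjusted p = 6.13e-05). After estradiol it measured -0.15, -0.21 and -0.47 in EAAE uteri, against -1.16, -1.05 and -1.11 in WT uteri, 0.83 ± 0.11 higher in EAAE. It rose by 0.40 ± 0.11 in WT uteri, and was 0.16 ± 0.11 higher in EAAE E2 than in EAAE saline uteri, which did not pass the test. In both genes the 6 EAAE arrays were above the 6 WT arrays. Whether the probes of these genes read a shared transcript was not tested.

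**Figure D5:**
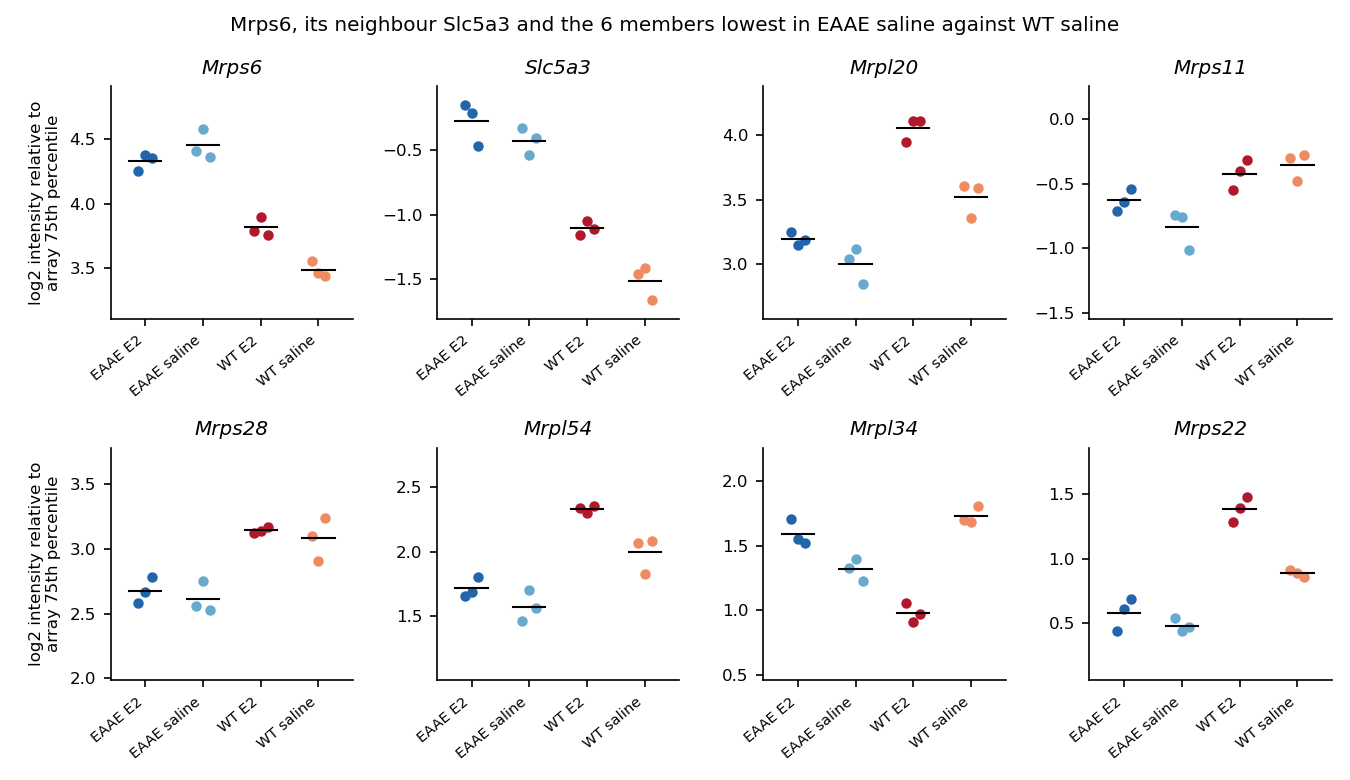
Mrps6, the overlapping gene Slc5a3 and the 6 members lowest in EAAE saline against WT saline, by array, drawn as in the plot of the largest rises. In Mrps6 and Slc5a3 the 6 EAAE points lie above the 6 WT points; in Mrpl20, Mrps11, Mrps28, Mrpl54, Mrpl34 and Mrps22 the 3 EAAE saline points lie below the 3 WT saline points.

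After estradiol the genotypes differed in more members and both ways. In EAAE E2 uteri 27 members were lower and 15 higher than in WT E2 uteri, against 24.8% and 33.0% of all genes (57.8% either way). In 33 members every EAAE E2 array was below every WT E2 array and in 22 every one was above, against 27.6% and 36.6% of all genes. The median was -0.07 beside 0.10. This comparison shares its arrays with the responses above, and 19 of the 22 members that rose in WT uteri are on its lower side. Mrps7 was lowest at -0.88 ± 0.10 (0.545-fold, adjusted p = 2.44e-05), and Mrps2, Mrps23, Mrps18b, Mrpl16, Mrpl17 and Mrpl12 lay between -0.68 and -0.84. Of 34 genes with several tested probes, 11 had a probe of the opposite sign. Of 21 called on their brightest probe, 15 had a second probe called the same way. Mrps2, Mrps5, Mrps18b and Mrpl49 were called although another probe had the opposite sign.

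Some members were lower in EAAE uteri with and without hormone. Of the 25 lower in saline, 14 were lower after estradiol too. Of all genes 24.8% were lower after estradiol, and how many of those lower in saline were among them was not counted. Mrpl20 measured 3.25, 3.15 and 3.19 in EAAE E2 uteri, against 3.95, 4.11 and 4.11 in WT E2 uteri, a difference of -0.86 ± 0.10. Mrps22, a mitochondrion-specific small subunit protein, measured 0.44, 0.61 and 0.69 in EAAE E2 uteri, against 1.28, 1.39 and 1.48 in WT E2 uteri, a difference of -0.80 ± 0.09. Mrps28 measured 2.58, 2.67 and 2.78 in EAAE E2 uteri, against 3.12, 3.14 and 3.17 in WT E2 uteri, and its difference of -0.47 was that seen in saline. Mrps28 did not pass the test after estradiol in either genotype.

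The higher side was led by Mrpl44, with 1.82, 1.99 and 2.14 in EAAE E2 uteri, against 1.09, 1.14 and 1.39 in WT E2 uteri. Its difference was 0.78 ± 0.13 (1.72-fold, adjusted p = 0.000347), and in saline it was 0.30 higher in EAAE, which did not pass the test. Mrpl34 was 0.61 ± 0.08 higher in EAAE E2 than in WT E2 uteri, although in saline its difference was -0.42. Mrpl49 (0.55), Mrps6 (0.51), Mrps36 (0.48), Mrpl42 (0.43) and Mrpl30 (0.42) followed. With slide and position in the fit 15 members were lower and 1, Mrpl34, was higher, against 12.1% and 14.8% of all genes. On each of the 3 slides all 27 lower members were below 0 and all 15 higher ones above it. Here too the groups did not overlap in any called member, so this is no check on the slides. Adipocyte markers (8 of 8 higher, 53.7 to 289 in EAAE E2, against 2.62 to 26.3 in WT E2), stromal markers (6 of 7 higher, 93.4 to 115 in EAAE E2, against 45.7 to 52.4 in WT E2) and smooth muscle markers (4 of 6 lower, 266 to 446 in EAAE E2, against 437 to 533 in WT E2) moved in this comparison. So did epithelial markers (4 of 7 higher and 2 lower, 176 to 212 in EAAE E2, against 106 to 116 in WT E2), skeletal muscle markers (4 of 5 higher and 1 lower, 2.54 to 4.5 in EAAE E2, against 5.97 to 6.99 in WT E2) and 2 of 6 endothelial markers, which were higher. Of the 6 uterine markers 3 were higher and 2 lower. The part of these shifts was not tested.

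On their brightest probes 57 of the 78 members passed the test in at least 1 comparison and 21 in none. The matching share of all genes was not counted, and single comparisons called 1.4 to 57.8% of all genes. Those 21 were Mrpl1, Mrpl9, Mrpl10, Mrpl15, Mrpl18, Mrpl23, Mrpl27, Mrpl28, Mrpl33, Mrpl39, Mrpl40, Mrpl52, Mrpl55, Mrps12, Mrps14, Mrps15, Mrps17, Mrps18c, Mrps26, Mrps27 and Mrps31. Another probe of Mrpl27, Mrpl28, Mrpl33, Mrpl52, Mrps15 and Mrps17 was called in at least 1 comparison. The widest spread within a group was in Mrpl15 (SD 0.26 in WT E2) and Mrpl18 (SD 0.26 in EAAE saline).

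The genes that work with these proteins were counted in the same fit, in which 19.5% of all genes rose and 29.9% fell in WT uteri. Of 5 proteins of this ribosome under other names, 2 rose in WT uteri: Gadd45gip1, a large subunit protein, by 0.46 ± 0.12, and Ptcd3, a small subunit protein, by 0.30 ± 0.08. Among 14 mitochondrial translation factors 3 rose (21.4%) and 6 fell (42.9%), and Mtrf1, a release factor of the family, fell by 0.81 ± 0.13. Of 26 assembly and ribosomal RNA processing factors 5 rose (19.2%) and 9 fell (34.6%). They include methyltransferases of the mitochondrial ribosomal RNA: Mrm3 rose by 0.96 ± 0.07 and Mrm2 fell by 1.18 ± 0.09. Of 17 mitochondrial aminoacyl-tRNA synthetases 2 rose (11.8%) and 8 fell (47.1%). Of 81 respiratory chain subunits 6 rose (7.41%) and 16 fell (19.8%), both smaller shares than those of all genes. In EAAE uteri the medians of these 5 lists lay between 0.119 and 0.135, beside 0.03 over all genes, and no gene of theirs was called.

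Of 10 genes of mitochondrial transcription and RNA stability 2 rose and 4 fell in WT uteri, and of 10 regulators of mitochondrial biogenesis 3 rose and 1 fell, beside the same 19.5% and 29.9% of all genes. Mterf2, of the mitochondrial termination factor family, fell by 2.11 ± 0.20, and Tfam, which packs and transcribes the mitochondrial genome, fell by 0.36 ± 0.13. Among the regulators, Pprc1, a coactivator of the PGC-1 family, rose by 2.05 ± 0.08, Myc by 1.30 ± 0.12 and the transcription factor gene Nrf1 by 0.36 ± 0.09, while the coactivator gene Ppargc1a fell by 1.58 ± 0.22. Pprc1 was 0.37 ± 0.08 higher in EAAE E2 than in EAAE saline uteri (adjusted p = 0.0509). The 1 regulator that passed the test there was Ppargc1b, with a difference of -0.78 ± 0.09 (adjusted p = 0.00588).

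Genes of the cytosolic ribosome were counted in the same way. None of 78 cytosolic ribosomal proteins rose in WT uteri, against 19.5% of all genes. Of these, 14 fell (17.9%), a smaller share than the 29.9% of all genes, and their median of -0.18 lay near the -0.148 of all genes. In EAAE uteri the median of these 78 proteins was 0.104, beside 0.03 over all genes, and none was called. Of 34 factors that build the cytosolic ribosome 31 rose (91.2%) and none fell. Their median was 1.26 in WT uteri, and in EAAE uteri it was 0.18, beside 0.03 over all genes.

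The promoter table of RefSeq (GRCm38.p6; 250 bases before to 50 after each gene's start) held 75 windows for 69 of the 78 members, among 32851 windows in all. Motifs were searched on both strands as exact letters, and no 2 motifs overlapped in a member's window. CCGGAAG, the core bound by ETS factors such as GABP, was in 34.7% of the members' windows and in 8.86% of all windows. It was in 9 of 18 windows of members that rose in WT uteri and in 3 of 15 windows of those that fell. AAGATGGCG (YY1) was in 10.7% of the members' windows against 1.4% of all, and the palindrome bound by NRF1, searched without mismatch, in 4.0% against 0.971%. CACGTG (E box) was in 9.33% against 7.15%, and the palindromic estrogen response element, with any 3 bases between its arms, in none of the members' windows against 0.07% of all. A match is a description and no evidence of binding.

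The windows of the 2 largest rises, of the largest fall and of the 1 member higher in EAAE saline uteri are given 5′ to 3′ on the gene's strand, with motif matches in capitals. They are Mrps7 (plus strand, chr11:115603890-115604189), Mrps18b (minus strand, chr17:35916391-35916690), Mrpl34 (plus strand, chr8:71464676-71464975) and Mrps6 (plus strand, chr16:92058086-92058385). The capitals mark the ETS core, on the opposite strand and 44 bases into the Mrps18b transcript, and 37 bases before the Mrpl34 start. Neither the Mrps7 nor the Mrps6 window held any of the motifs.
Mrps7: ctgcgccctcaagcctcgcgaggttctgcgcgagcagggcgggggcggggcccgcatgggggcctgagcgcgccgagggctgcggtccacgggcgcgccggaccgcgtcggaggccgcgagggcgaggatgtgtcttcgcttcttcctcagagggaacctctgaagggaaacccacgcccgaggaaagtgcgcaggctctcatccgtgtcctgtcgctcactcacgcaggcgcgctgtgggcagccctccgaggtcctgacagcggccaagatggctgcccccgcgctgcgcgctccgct
Mrps18b: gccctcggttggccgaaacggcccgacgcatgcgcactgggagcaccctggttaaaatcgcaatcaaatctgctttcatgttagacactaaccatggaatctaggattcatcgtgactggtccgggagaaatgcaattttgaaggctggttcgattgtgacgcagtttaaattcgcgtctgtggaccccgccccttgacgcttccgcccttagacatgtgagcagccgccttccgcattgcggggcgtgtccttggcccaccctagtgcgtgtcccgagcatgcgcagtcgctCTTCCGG
Mrpl34: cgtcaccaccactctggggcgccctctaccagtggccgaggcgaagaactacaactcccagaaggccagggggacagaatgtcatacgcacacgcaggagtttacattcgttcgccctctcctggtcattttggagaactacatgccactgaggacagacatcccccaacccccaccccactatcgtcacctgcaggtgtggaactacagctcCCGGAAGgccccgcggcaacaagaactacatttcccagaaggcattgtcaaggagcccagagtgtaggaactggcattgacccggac
Mrps6: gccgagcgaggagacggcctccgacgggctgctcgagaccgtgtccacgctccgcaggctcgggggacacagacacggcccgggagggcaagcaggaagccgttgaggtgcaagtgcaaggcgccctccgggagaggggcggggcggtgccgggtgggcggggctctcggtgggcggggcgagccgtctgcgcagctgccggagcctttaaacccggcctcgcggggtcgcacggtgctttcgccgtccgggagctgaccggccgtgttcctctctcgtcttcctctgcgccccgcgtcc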

How the data were processed

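Each of 12 single-colour Agilent arrays received Cy3-labelled RNA of 1 uterus (500 ng total RNA as input, per the labels' protocols). Spots were extracted with Agilent Feature Extraction 9.5.3.1, per the file headers (version 9.5, per the submitters' processing notes). As deposited, the values are linear intensities from which the software had subtracted background, with no scaling between arrays, per the file headers. A series-wide table from the authors repeats these intensities at each of 45018 spots; its columns have medians from 147.7 to 225.4.

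Control spots and spots marked as outliers were left out, log2 intensities were averaged per probe, and the array's 75th percentile was subtracted. Probes were kept (29017 of 41174) where 1 or more groups had all arrays well above background, and the brightest stood for its gene. The 2-sided test was limma's (version 3.58.1 in R 4.3.3; lmFit, then eBayes), fitted to all 12 arrays, with Benjamini-Hochberg adjustment over 19304 genes and a threshold of 0.05; the code was checked on simulated data. Errors are SE of the fit unless marked SD. Names came from RefSeq (GRCm38.p6) and probe coordinates from the files (mm7). Python 3.11.15, numpy 2.4.6, pandas 2.3.3 and matplotlib 3.10.9 made tables and plots.

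The members and the lists were chosen with earlier results of these data known, so no list was tested. Counts in single comparisons stand beside those of all genes. Per-array values were given for up to 8 of the largest called rises and falls of a comparison, Mrpl12, Mrps12 and the relatives of Mrps18, and other lists named up to 3 genes with the smallest p; Slc5a3, Tfam, Myc and Nrf1 and the last 2 promoter windows were added by choice, some after values were seen. The alternatives were the array median, quantile normalization, normexp background (offset 50), the deposited series table, no filter, a filter on all 12 arrays, the mean of a gene's probes, slide as a block, slide with position, a replicate block, only the groups compared, and leaving out each array. Precision is set by having 3 mice in a group. The 18 correlations between same-numbered mice ran from -0.281 to 0.275, with 8 over 0.1. These values do not settle whether the numbers pair the mice.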

Additional observations from a re-analysis of the deposited data

Results flagged for a closer look

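These members were marked because their estradiol response differed between genotypes by a test of the difference itself (EAAE response minus WT response, log2, limma, adjusted p below 0.05). The response was lower in EAAE uteri for Mrps7 (-0.73), Mrps2 (-0.63), Mrpl16 (-0.57), Mrps18b (-0.57), Mrpl50 (-0.56), Mrps23 (-0.53), Mrps6 (-0.45), Mrps22 (-0.40), Mrpl12 (-0.39) and Mrpl17 (-0.33). It was higher in EAAE uteri for Mrpl34 (1.03), Mrpl42 (0.64), Mrpl30 (0.58), Mrpl49 (0.54), Mrpl13 (0.52), Mrps33 (0.52), Mrpl14 (0.44), Mrpl48 (0.44), Mrpl2 (0.44), Mrps35 (0.42), Mrpl45 (0.40) and Mrpl11 (0.34). Of these 22, Mrpl34 had the difference of largest size, falling by 0.75 in WT uteri and lying 0.28 higher in EAAE E2 than in EAAE saline uteri. Among the other genes named here the same test marked Pprc1 (-1.68), Myc (-1.01), Mrm3 (-0.84), Ppargc1b (-0.80) and Nrf1 (-0.49) with a lower response in EAAE uteri, and Mterf2 (2.33), Mrm2 (1.56), Mtrf1 (0.95) and Tfam (0.57) with a higher one.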

How the results depend on the processing

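No member that passed the test changed its direction under any alternative run. In several runs this was fixed beforehand. The deposited table repeats the same intensities, and a replicate block or a fit to only the groups compared leaves the differences as they are. Where 2 groups do not overlap, leaving out 1 of their arrays cannot reverse the difference. Those runs are no check on direction. Counts of members called, and medians, moved as follows. With array medians as the scale, WT falls were 3 (median 0.144), higher EAAE responses 4 (median of the response difference 0.018), members lower in EAAE saline 12 and members higher in EAAE E2 than in WT E2 8 (median -0.159). With quantile normalization WT falls were 23 (median -0.066) and the median of EAAE E2 against WT E2 was -0.010. With no filter on dim probes, which raised the genes tested to 27669, WT falls were 9 and higher EAAE responses 6. With the slide as a block WT falls were 9, higher EAAE responses 6 and members lower in EAAE saline 4. With slide and position WT rises were 11 and falls 3, higher and lower EAAE responses 5 and 6, members higher and lower in EAAE saline 0 and 0 (median -0.285), and members higher and lower in EAAE E2 than in WT E2 1 and 15 (median -0.184). With only the arrays of the groups compared, 11 members were lower in EAAE saline, against 14.8% of all genes. The share of all genes lower in EAAE saline was 10.2% with the slide as a block and 1.03% with slide and position. Position is largely tied to group, so the fit with position cannot cleanly separate them. The cause of these shifts was not tested.

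Leaving out each array in turn gave 18 to 23 WT rises, 5 to 15 WT falls and a WT median of -0.039 (without WT saline mouse 2) to 0.05. Higher EAAE responses numbered 6 to 14 and lower ones 7 to 12, with a median of 0.08 to 0.157. Members lower in EAAE saline numbered 12 to 25 and higher 1, with a median of -0.215 to -0.153. Members higher in EAAE E2 than in WT E2 numbered 14 to 16 and lower 24 to 27, with a median of -0.085 to -0.033. In the EAAE response limma called no member under any alternative (0 to 0; 0 to 15 had an unadjusted p below 0.05), and the median was 0.111 to 0.138 over the arrays left out. A replicate block gave 20 WT rises, 10 WT falls, 9 higher and 9 lower EAAE responses, 21 members lower in EAAE saline, and 14 higher and 26 lower in EAAE E2 than in WT E2. Whether the replicate numbers pair the mice is not known.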
